A study of Mus musculus with 12 samples.

Results

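Neonatal mouse cardiomyocytes that had received both phenylephrine and a GapmeR against lincRNA-p21 were compared with cells that had received neither agent beyond the vehicle and a control oligonucleotide. The comparison asks what net state the cells reached after both treatments, and which genes that phenylephrine had moved were back at the level of the untreated control. It uses 6 of the 12 libraries of the series, chosen by their labels alone: 3 of the stimulated knockdown (phenylephrine for 24 hours with the lincRNA-p21 GapmeR) and 3 of the untreated control (PBS with the negative-control GapmeR). The 3 libraries of the stimulated control (phenylephrine for 24 hours with the negative-control GapmeR) show where each gene stood without the knockdown. The 3 libraries of the untreated knockdown (PBS with the lincRNA-p21 GapmeR) entered the estimate of spread and are quoted where they place a value. Every culture received a GapmeR, so no group shows cells without an oligonucleotide. The labels name no strain, sex or age beyond neonatal, and they do not say whether replicates came from separate cultures or animals. The p-values therefore measure the spread between these samples, which may be technical.

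Phenylephrine is an agonist of the alpha-1 adrenergic receptor. In cardiomyocytes this receptor couples through Gq to phospholipase C, protein kinase C and calcium release, and from there to the MAP kinase cascade and to calcineurin, the phosphatase that sends NFAT factors into the nucleus. The cells enlarge, make more ribosomes and turn on genes of the fetal heart, such as those for the natriuretic peptides and skeletal alpha-actin. lincRNA-p21, the product of Trp53cor1, is a long noncoding RNA transcribed next to Cdkn1a and known as a p53 target. A GapmeR is an antisense oligonucleotide with a DNA core that directs RNase H to the RNA it pairs with.

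Each library held between 21325485 and 22139681 reads assigned to genes, and in the 6 libraries compared 6.55 to 10.7% of them were mitochondrially encoded. Replicate 2 of the untreated control and replicate 1 of the stimulated knockdown stood apart from their groups, at a root mean square distance of 0.263 and 0.284 on the log2 scale. They also had the highest mitochondrial shares of the 6, at 10.7 and 10.04%. The main counts are also given without these 2 libraries. Replicate 2 of the untreated knockdown was the furthest of all 12 from its group, at 0.373. It entered the estimate of spread and stayed in that fit. The cells carried the defining transcripts of cardiomyocytes in both groups. Tnnt2, cardiac troponin T, stood at 97962, 142655 and 92881 normalised reads in the untreated control and at 133162, 94349 and 99228 in the stimulated knockdown, with no difference past the test (log2 change -0.02 ± 0.19 SE, adjusted p = 0.95).

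The target of the GapmeR was lower. Trp53cor1 (chromosome 17, 29057430 to 29079179, minus strand, GRCm38, a lincRNA gene) had 59.8, 70.6 and 63.2 normalised reads in the untreated control, 56, 34 and 34.7 in the stimulated control, and 8.56, 9.97 and 8.93 in the stimulated knockdown. The net log2 change was -2.69 ± 0.30 (SE, adjusted p = 6.9e-07), and the libraries of the groups compared did not overlap. The antisense gene AC167363.1 overlaps it at a lower level, and whether the counting used strand is not given in the sources used here. Cdkn1a, the neighbouring cell cycle inhibitor, was higher in the stimulated knockdown than in the untreated control (0.46 ± 0.12, adjusted p = 0.0059). Its values were 12835, 16439 and 12175 in the untreated control and 21717, 17795 and 17262 in the stimulated knockdown. The change with phenylephrine alone was 0.53.

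Across the transcriptome the cells that had received both agents were far from the untreated control. Of 21799 genes tested, 7501 (34.4%) passed an adjusted p of 0.05, with 3653 (16.8%) higher and 3848 (17.7%) lower in the stimulated knockdown. At least 1.5-fold differences were found for 2211 higher (10.1%) and 2638 lower genes (12.1%). Phenylephrine alone, measured in control GapmeR cells, gave 5543 calls (25.4%), and the knockdown within phenylephrine gave 2553 (11.7%), 997 higher (4.57%) and 1556 lower (7.14%). Phenylephrine raised 2742 genes (12.6%) and lowered 2801 (12.8%). Without the 2 distant libraries the net comparison gave 6511 calls, phenylephrine alone 5352 and the knockdown within phenylephrine 2398. The median log2 change over all genes tested was 0.02.

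The fetal and hypertrophic genes remained mostly on the side to which phenylephrine had taken them. Of 18 such genes tested, 11 were higher and 3 lower than in the untreated control (61.1 and 16.7%, against 16.8 and 17.7% of all genes). Their median net log2 change was 0.51, beside 0.91 for phenylephrine alone and -0.36 for the knockdown in phenylephrine. The knockdown in phenylephrine was called lower for 7 of the 18 and higher for none, beside 7.14 and 4.57% of all genes. Fhl1 was among the genes not called in the net comparison (0.12 ± 0.09, adjusted p = 0.36). It counted as back in the classification below, though not when every library was rescaled to the same total. Nppb, which encodes B-type natriuretic peptide (chromosome 4, 147985788 to 147987205), had 2544, 3721 and 2709 normalised reads in the untreated control, 21093, 22931 and 20555 in the stimulated control and 13453, 13145 and 13254 in the stimulated knockdown. The 3 groups did not overlap, and the stimulated knockdown lay between the other two. It was 4.44-fold above the untreated control (log2 change 2.17 ± 0.13, adjusted p = 1.9e-10). Acta1, skeletal alpha-actin, followed the same order. Its values were 177, 185 and 191, then 1153, 1088 and 975, then 716, 820 and 847, and its net change was 2.10 ± 0.11 (adjusted p = 4.1e-11).

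Other members of the program differed among themselves. Nppa, atrial natriuretic peptide, ranged from 14572 to 15326 in the untreated control and from 18453 to 19250 in the stimulated knockdown, a net change of 0.33 ± 0.11 (adjusted p = 0.021). That call was lost without the 2 distant libraries (adjusted p = 0.062), with every library rescaled to the same total (0.077), without a filter on low values (0.056), without replicate 1 of the untreated control (0.074) and without replicate 3 of the stimulated knockdown (0.059). Gdf15, a stress-induced cytokine, had 607, 689 and 672 normalised reads in the untreated control and 2095, 2789 and 2787 in the stimulated knockdown, a rise of 1.95 ± 0.15 (adjusted p = 8.3e-09). Myh7, the slow beta-myosin heavy chain, is commonly listed with the fetal genes and went the other way. It stood at 8664, 10006 and 9833 in the untreated control, at 4384, 3674 and 3311 in the stimulated control and at 3093, 2557 and 2647 in the stimulated knockdown. The net change was -1.78 ± 0.12 (adjusted p = 9.5e-10). Myh6, the fast alpha-myosin heavy chain, had 308655, 347003 and 313848 in the untreated control and 456573, 393796 and 388701 in the stimulated knockdown. These libraries did not overlap, as was the case for 46.5% of all genes, yet the limma test did not call Myh6 (0.35 ± 0.21, adjusted p = 0.21). edgeR with the deposited size factors called it at an adjusted p of 0.041. Rcan1, a calcineurin inhibitor that NFAT itself induces, was higher by 0.85 ± 0.10 (adjusted p = 9.5e-07), beside 0.94 for phenylephrine alone. Without the 2 distant libraries 8 of the 18 fetal and hypertrophic genes were higher and 3 lower.

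**Figure D1:**
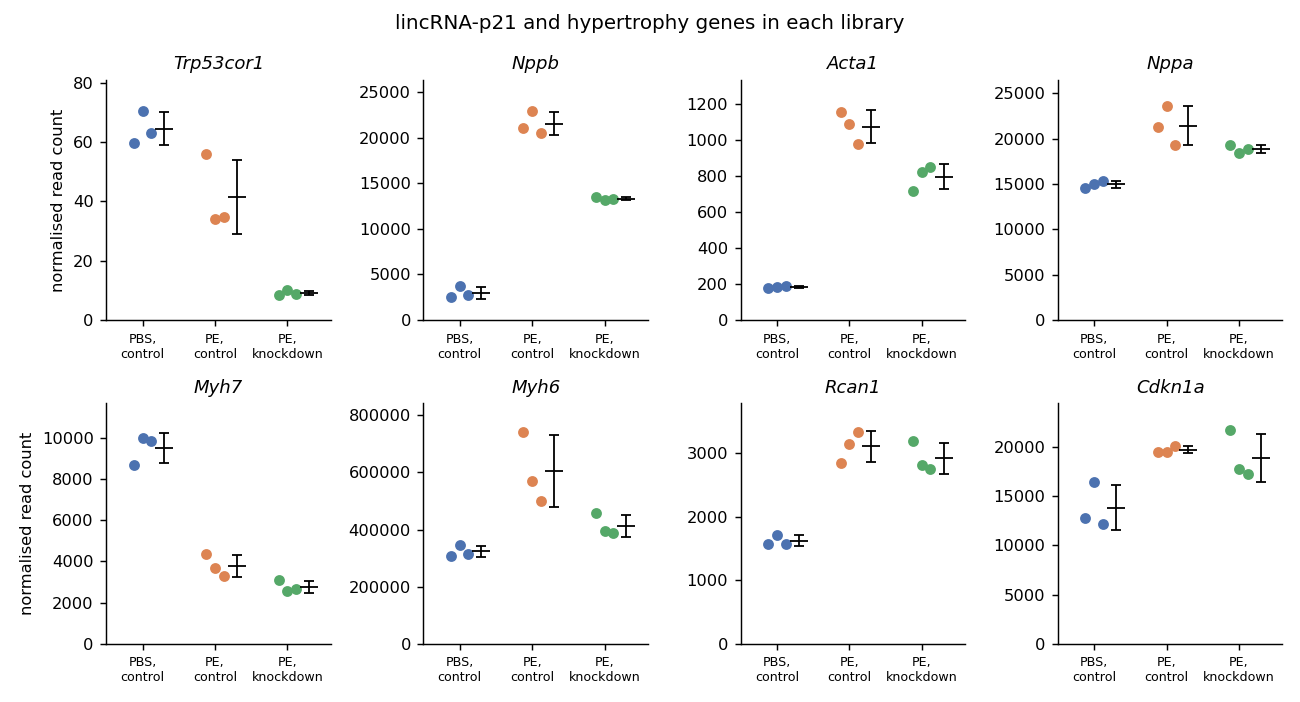
Normalised read count (linear axes from 0) of lincRNA-p21 (Trp53cor1) and 7 hypertrophy genes in each library of the untreated control (blue), stimulated control (orange) and stimulated knockdown (green), with the mean and SD of each group beside its points. Nppb and Acta1 in the stimulated knockdown lie between the other groups, while Trp53cor1 lies below both.

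To say which genes were back at the untreated level, each gene that phenylephrine had moved in control cells was classified. A gene counted as moved if its phenylephrine contrast was called with a change of at least 1.5-fold, which held for 3467 genes (15.9% of those tested). It counted as back if the knockdown was called in the opposite direction, the net contrast was not called, and the net change was within 1.5-fold by 2 one-sided limma tests at an adjusted p of 0.05. Over all genes, 4597 (21.1%) met that last condition. Near the threshold, Parm1, Extl3 and Ipo4 were just inside with phenylephrine changes of 0.59, -0.59 and 0.59, and Skida1, Cct6a and Ift122 just outside with -0.58, 0.58 and -0.58. The stimulated control enters both contrasts that choose these genes, with opposite sign, so chance deviation in those 3 libraries favours a gene being counted as back. The net contrast also shares the untreated control with the phenylephrine contrast and the stimulated knockdown with the knockdown contrast.

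Most moved genes were still displaced. Of the 3467, 2620 (75.6%) remained different from the untreated control in the direction of phenylephrine with no opposing call for the knockdown, 1190 of them higher and 1430 lower. For 2340 of these the knockdown made no called difference, and for 280 it was called in the same direction as phenylephrine, 85 higher and 195 lower. A missing call does not show that the knockdown left a gene unchanged. A further 139 genes (4.01%) were part way back, with the knockdown called in the opposite direction and the net change still called on the side of phenylephrine. In all, 75 genes (2.16%) were back, in the sense of within 1.5-fold and not called, 45 after a rise and 30 after a fall with phenylephrine. Being back took a test of equivalence that the other classes did not need. The sizes of the classes are therefore not on equal terms. Another 23 (0.663%) had gone past the untreated control to the other side. The last 610 (17.6%) could not be decided: 509 were neither called opposite by the knockdown nor within 1.5-fold, 93 were called opposite but not shown to be within 1.5-fold, and 8 were within 1.5-fold with no called knockdown difference.

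These counts depended on which libraries were included. Without the 2 distant libraries 2449 genes were still displaced and 122 part way back. The part way count moved more in other fits. It was 68 without replicate 2 of the stimulated knockdown and 239 without replicate 2 of the untreated knockdown. With that last library and the 2 distant ones all left out it was 319, and 2539 genes were still displaced. The next counts are again from the fit without the 2 distant libraries. In that fit 66 genes were back, of which 43 were among the 75, and 16 had gone past, of which 12 were among the 23. Without replicate 3 of the stimulated knockdown 44 genes were back, and without its replicate 2 there were 49. When every library was rescaled to the same total, 99 genes were back, 23 after a rise and 76 after a fall, and 36 of the 75 were among them, so the larger number of genes back after a rise did not hold under that scaling. Without replicate 1 of the untreated control, 38 of the 75 were still back and 10 of the 23 still past. Of the 75, 18 were back whichever single library was left out. For genes with a mean of at least 50 the rescaling moved the median net change from 0.02 to -0.06.

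**Figure D2:**
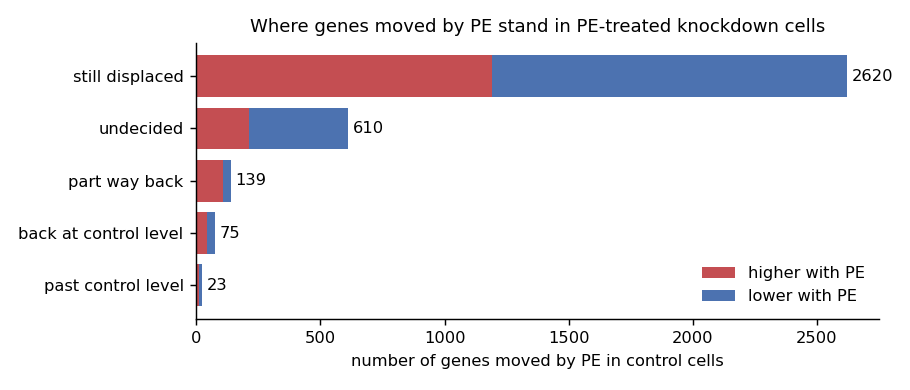
Number of the 3467 genes moved by phenylephrine in control cells, by where they stood after both treatments. Red marks genes that phenylephrine had raised and blue those it had lowered. The still displaced class holds 2620 genes, and 75 genes were back, within 1.5-fold of the untreated control and not called different from it.

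The 75 genes back at the untreated level included 2 of 26 collagen and matrix genes, 2 of 26 calcium handling and ion channel genes, 1 of 22 sarcomere genes and 1 of 26 interferon-stimulated genes, beside 0.344% of all genes tested. Counts this small say nothing about a list. In the 10 named by size of the phenylephrine change, the net change ranged from -0.26 to 0.26. Back meant within 1.5-fold and did not mean equal. For Rnf166 and Fam129b every library of the stimulated knockdown lay below the untreated control. Their net changes were -0.26 (95% confidence interval -0.49 to -0.03) and -0.27 (-0.49 to -0.04). For Cacnb2 and Ryr2 every library lay above it, with net changes of 0.27 (0.03 to 0.51) and 0.23 (-0.01 to 0.48). For others of the class the groups overlapped. Gbp2, an interferon-inducible guanylate-binding GTPase, had 279, 275 and 247 normalised reads in the untreated control, 128, 112 and 112 in the stimulated control and 288, 259 and 265 in the stimulated knockdown. The outer groups overlapped and both lay above the stimulated control, with a net change of 0.02 (95% confidence interval -0.24 to 0.28). Col12a1, a fibril-associated collagen, moved in the other direction. It had 3098, 3046 and 3486 in the untreated control, 6520, 6598 and 6515 in the stimulated control and 3551, 3577 and 3526 in the stimulated knockdown, a net change of 0.15 (-0.06 to 0.36). The stimulated knockdown lay above the untreated control in every library, by less than 1.5-fold. Mypn, the Z-disc protein myopalladin, stood at 2064, 2452 and 2267, then 4800, 4357 and 4200, then 2863, 2398 and 2199. Its net change was 0.13 ± 0.13 (adjusted p = 0.48).

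The next 3 genes are given here after their values were seen, because they were back whichever library was left out or because their product is well known in cardiomyocytes. Tpm1, alpha-tropomyosin of the thin filament, had 95239, 118534 and 93691 in the untreated control, 171752, 159661 and 155734 in the stimulated control and 106475, 97400 and 100374 in the stimulated knockdown. Its net change was -0.01 (95% confidence interval -0.34 to 0.32). Fbxo32, the muscle ubiquitin ligase atrogin-1, had fallen with phenylephrine. Its values were 1703, 1679 and 1670, then 1003, 987 and 1116, then 1626, 1591 and 1663, and the net change was -0.05 (-0.23 to 0.13), with all 3 values of the stimulated knockdown just below the untreated control. Jph2, junctophilin 2 of the dyad between the plasma membrane and the sarcoplasmic reticulum, had 9178, 8979 and 9296, then 16502, 15120 and 12359, then 8622, 9605 and 9788, a net change of 0.03 (-0.24 to 0.30). Tpm1 and Jph2 were not back when every library was rescaled to the same total.

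Genes past the untreated level had crossed from one side to the other. Trib3, a pseudokinase induced by ATF4, had 591, 552 and 539 normalised reads in the untreated control, 180, 164 and 156 in the stimulated control and 822, 1108 and 974 in the stimulated knockdown. Phenylephrine alone changed it by -1.75 and the net change was 0.78 ± 0.12 (adjusted p = 5.0e-05). Kcnq5, a voltage-gated potassium channel, crossed downward. It had 313, 273 and 304, then 578, 597 and 599, then 157, 179 and 192, with a net change of -0.75 ± 0.12 (adjusted p = 6.8e-05). Gfod1, an oxidoreductase-domain gene, went from 595, 519 and 644 to 1357, 1375 and 1335 with phenylephrine, and stood at 453, 416 and 412 with both agents (net change -0.45 ± 0.12, adjusted p = 0.0045). Irgm2, an immunity-related GTPase named here after its values were seen, had 352, 351 and 380, then 261, 166 and 220, then 655, 645 and 501 (net change 0.72 ± 0.15, adjusted p = 7.2e-04). The gene Igtp overlaps it on the same strand at a lower level. Trib3, Kcnq5, Gfod1 and Irgm2 were past in every fit that left out 1 library. Smurf2 and Lpp were called past at adjusted p values of 0.048 and 0.041 and lost that call in some of those fits.

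**Figure D3:**
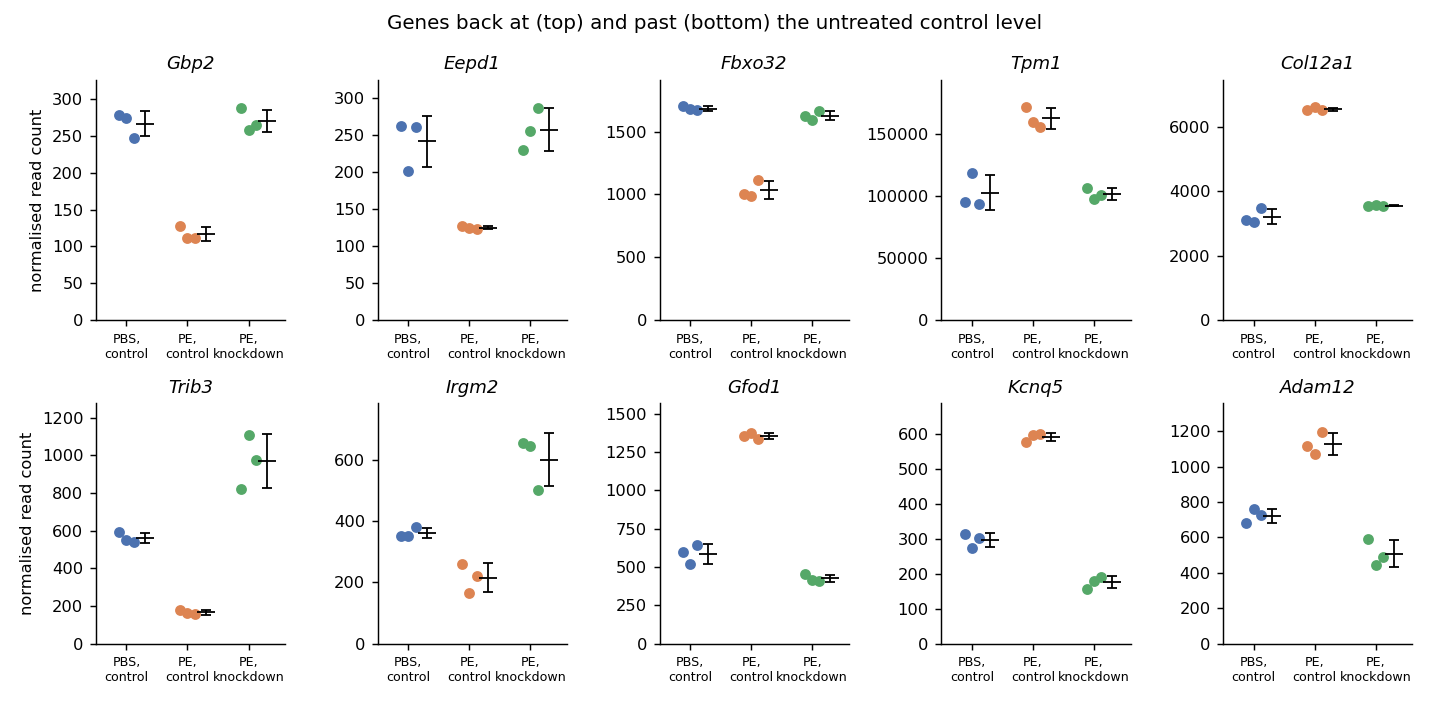
Normalised read count (linear axes from 0) in each library for 5 genes back at the untreated level (top) and 5 genes past it (bottom), with the mean and SD of each group beside its points. Gbp2 and Col12a1 in the stimulated knockdown lie within 1.5-fold of the untreated control, Col12a1 slightly above it, and Trib3 and Kcnq5 end on the other side of it.

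Among other genes part way back, Thbs1, thrombospondin 1, had 5939, 5367 and 6001 normalised reads in the untreated control, 37099, 34140 and 31591 in the stimulated control and 23088, 21930 and 22128 in the stimulated knockdown. The 3 groups did not overlap. Thbs1 moved by 2.57 with phenylephrine and stood at 1.96 ± 0.10 with both agents (adjusted p = 5.6e-11). Tnc, tenascin C, moved by 2.58 and stood at 2.08 ± 0.10 (adjusted p = 1.1e-11). Among genes that phenylephrine had lowered, Aoc3, a vascular amine oxidase, moved by -3.03 and stood at -1.80 ± 0.22 (adjusted p = 3.4e-06).

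The largest net changes came from different origins. Hsd3b1, a 3-beta-hydroxysteroid dehydrogenase (chromosome 3, 98852194 to 98859794), had 2.85, 17.4 and 7.55 normalised reads in the untreated control, 9.7, 12.8 and 10.9 in the stimulated control and 458, 423 and 425 in the stimulated knockdown. Its net log2 change of 5.69 ± 0.35 (adjusted p = 3.7e-10) was the highest of the named genes, and the untreated knockdown averaged 187 ± 23.2 (SD, n = 3). Its paralog Hsd3b6 had 2.85, 2.05 and 8.49, then 19.4, 17 and 18.5, then 232, 229 and 231, a net change of 5.59 ± 0.32 (adjusted p = 1.0e-10). Reads of these near-identical paralogs may have been split between them by the counting. Ccl6, a chemokine, reached a similar net change with phenylephrine alone. It had 5.69, 11.2 and 7.55, then 298, 351 and 407, then 387, 349 and 324, a net change of 5.31 ± 0.34 (adjusted p = 5.1e-10). At the other end, Lrrc17, a secreted leucine-rich repeat protein, had 202, 200 and 182, then 9.7, 7.44 and 3.26, then 3.21, 4.98 and 3.97 (net change -5.29 ± 0.29, adjusted p = 8.7e-11). Agt, angiotensinogen, had 174, 171 and 152, then 18.3, 14.9 and 20.6, then 13.9, 2.99 and 4.96 (net change -4.55 ± 0.34, adjusted p = 4.4e-09).

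A separate set of 486 genes (2.23% of those tested) differed from the untreated control in the net state although phenylephrine alone had not moved them. In these the net change was called with at least 1.5-fold, while phenylephrine alone was not called and was within 1.5-fold by the 2 one-sided tests. The class sets no condition on the untreated knockdown, so it includes genes that already differed with the knockdown alone. Of the 486, 132 were higher and 354 lower, and without the 2 distant libraries there were 456. Rescaling every library to the same total gave 417, with 168 higher. Ppp3ca, the catalytic subunit of calcineurin, had 2015, 2260 and 1917 normalised reads in the untreated control, 1853, 1806 and 1902 in the stimulated control and 428, 355 and 408 in the stimulated knockdown. Its net change was -2.38 ± 0.11 (adjusted p = 7.8e-12). The untreated knockdown averaged 335 ± 35.8 (SD, n = 3). Ralgapa2, a subunit of the RalGAP complex, had 1363, 1243 and 1372, then 1148, 1289 and 1201, then 226, 234 and 255 (net change -2.47 ± 0.12, adjusted p = 2.5e-11). Urm1, a ubiquitin-like sulfur carrier of tRNA modification, fell by 2.26 ± 0.14 (adjusted p = 2.4e-10). Amot, an angiomotin of the Hippo pathway, fell by 2.22 ± 0.14 (adjusted p = 6.8e-10). Among the higher genes of this class, Serpinb9, an inhibitor of granzyme B, had 410, 402 and 394, then 408, 443 and 454, then 1008, 1012 and 1040 (1.34 ± 0.12, adjusted p = 5.6e-08). Osgin1, an oxidative stress response gene, had 182, 200 and 184, then 214, 208 and 190, then 565, 531 and 470 (1.46 ± 0.15, adjusted p = 2.0e-07).

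Signalling genes downstream of the receptor were lower more often than higher. Of genes spanning over 200 kb with a mean of at least 50, whatever their function, 431 of 619 were lower. Hdac9 and Prkca, named below, are among genes of that span. The part of gene length in the counts of these lists was not tested. Of 22 genes of the calcineurin, NFAT and MEF2 group, 2 were higher and 12 lower (9.09 and 54.5%), with a median of -0.39, beside -0.07 for phenylephrine alone and -0.35 for the knockdown in phenylephrine. Mef2a, a cardiac MADS-box transcription factor, had 7578, 7627 and 7299 normalised reads in the untreated control and 3509, 2885 and 2911 in the stimulated knockdown (-1.28 ± 0.10, adjusted p = 7.8e-09). Mef2c fell by 1.18 ± 0.09 (adjusted p = 4.7e-09), and phenylephrine alone gave 0.03. Hdac9, a class IIa deacetylase that restrains MEF2, fell by 2.29 ± 0.12 (adjusted p = 2.8e-11). Of 20 adrenergic and Gq genes 3 were higher and 9 lower (15 and 45%, beside 16.8 and 17.7% of all genes), with a median of -0.23. Prkca, protein kinase C alpha, had 1627, 1666 and 1599 in the untreated control, 1412, 1344 and 1443 in the stimulated control and 425, 415 and 378 in the stimulated knockdown (-2.0 ± 0.10, adjusted p = 2.8e-11). Rgs16, a GTPase activator that dampens Gq signalling, was among the 10 highest genes at 3.54, and phenylephrine alone gave 3.57.

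The part of gene length was likewise not tested for calcium handling and ion channel genes. These were lower more often than higher, although their summed level overlapped between the groups. The sum was 190286 to 209423 in the untreated control and 188824 to 206607 in the stimulated knockdown. Of 26 calcium handling and ion channel genes, 3 were higher and 16 lower (11.5 and 61.5%), with a median of -0.60, beside -0.23 for phenylephrine alone. Kcnip2, the subunit that shapes the transient outward potassium current, had 548, 566 and 519 normalised reads in the untreated control, 133, 128 and 113 in the stimulated control and 61, 68.8 and 60.6 in the stimulated knockdown (-3.08 ± 0.13, adjusted p = 2.0e-12). Kcnd2, a pore subunit of that current, fell by 3.05 ± 0.19 (adjusted p = 4.6e-10), with all values of the stimulated knockdown at or below 19.3 and all of the untreated control at or above 149. Kcnj3, a G protein-gated inward rectifier, fell by 2.75 ± 0.10 (adjusted p = 7.8e-13). Cacna1c, the pore of the L-type calcium channel, had 6016, 5271 and 5845 in the untreated control and 1602, 1534 and 1493 in the stimulated knockdown (-1.89 ± 0.14, adjusted p = 3.4e-09). Pln, phospholamban, fell by 1.24 ± 0.19 (adjusted p = 3.2e-05) and Atp2a2, the calcium pump it inhibits, rose by 0.42 ± 0.14 (adjusted p = 0.027). Of 22 sarcomere genes 3 were higher and 6 lower (13.6 and 27.3%, beside 16.8 and 17.7% of all genes), with a median of -0.17. Actc1, cardiac alpha-actin, rose from 179215, 178658 and 187030 to 314468, 339963 and 340612 (0.87 ± 0.17, adjusted p = 3.7e-04), and Mybpc3, cardiac myosin-binding protein C, fell by 0.63 ± 0.15 (adjusted p = 0.003).

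Growth-related genes stayed mostly on the side of phenylephrine. Of 25 immediate early and MAPK feedback genes, 17 were higher and 2 lower (68 and 8%, beside 16.8 and 17.7% of all genes). Their median was 0.70, beside 1.05 for phenylephrine alone and -0.33 for the knockdown in phenylephrine. The knockdown in phenylephrine was called lower for 9 and higher for 1, beside 7.14 and 4.57% of all genes. In the classes above, 14 of the 25 were still displaced, 4 part way back and 1 back. Myc, a growth-promoting transcription factor, had 653, 981 and 748 normalised reads in the untreated control and 2917, 2281 and 2121 in the stimulated knockdown (1.63 ± 0.15, adjusted p = 5.2e-08). Fos, a subunit of AP-1, rose by 1.24 ± 0.15 (adjusted p = 2.6e-06), and phenylephrine alone gave 1.80. Of 18 NF-kB targets and cytokines 16 were higher and none lower (88.9%), with a median of 0.91 for the net change and for phenylephrine alone. Ptgs2, the inducible cyclooxygenase, had 63.6, 66.5 and 58.5 in the untreated control, 618, 632 and 739 in the stimulated control and 628, 660 and 666 in the stimulated knockdown (3.35 ± 0.13, adjusted p = 7.8e-13). Of 21 ribosome biogenesis genes 20 were higher and none lower (95.2%), with a median of 1.11, beside 0.86 for phenylephrine alone. The other gene, Polr1a, was back at the untreated level (-0.08 ± 0.10, adjusted p = 0.61), also in every fit that left out 1 library. Wdr43, a factor of the small-subunit processome, had 994, 1112 and 1048, then 1942, 1829 and 1998, then 2973, 2627 and 2659 (1.39 ± 0.11, adjusted p = 1.5e-08). Of 23 cytosolic ribosomal protein genes 22 were higher and none lower (95.7%), with a median of 0.59. Reads of ribosomal protein genes can be shared with their processed pseudogenes.

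Sterol genes were lower. Of 24 genes of cholesterol synthesis and sterol regulation none was higher and 20 were lower (83.3%, beside 17.7% of all genes). Their median was -0.64, beside -0.65 for phenylephrine alone. Insig1, the sterol-sensing retention protein of the endoplasmic reticulum, had 6307, 5498 and 6376 normalised reads in the untreated control, 1985, 2247 and 2119 in the stimulated control and 1721, 1927 and 2088 in the stimulated knockdown (-1.67 ± 0.10, adjusted p = 1.8e-10). Lss, lanosterol synthase, fell by 1.26 ± 0.09 (adjusted p = 1.2e-09), and phenylephrine alone gave -0.79. Without the 2 distant libraries 18 of the 24 were lower.

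Antiviral genes stood highest among the lists. Of 26 interferon-stimulated genes 24 were higher and none lower (92.3% higher, beside 16.8% of all genes). Their median was 1.78, beside 0.28 for phenylephrine alone and 1.34 for the knockdown in phenylephrine. Without the 2 distant libraries 23 were higher, with a median of 1.60. Rsad2, the antiviral enzyme viperin (chromosome 12, 26442746 to 26456452, minus strand), had 40.8, 31.7 and 51.9 normalised reads in the untreated control, 118, 64.8 and 93.4 in the stimulated control and 329, 382 and 336 in the stimulated knockdown. The 3 groups did not overlap, and the net change was 3.07 ± 0.23 (adjusted p = 3.5e-09). The untreated knockdown averaged 43.9 ± 8.64 (SD, n = 3). Ifit1, which binds viral RNA, had 141, 142 and 143, then 289, 160 and 187, then 831, 824 and 664 (2.43 ± 0.19, adjusted p = 9.4e-09). Cxcl10, an interferon-induced chemokine whose locus lies antisense within the more abundant Art3, rose by 3.26 ± 0.16 (adjusted p = 1.4e-11). Isg15, a ubiquitin-like modifier, rose from 72.1, 48.1 and 75.5 to 246, 416 and 385 (2.39 ± 0.29, adjusted p = 2.3e-06).

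Genes controlled by ATF4 in the integrated stress response, in which phosphorylation of eIF2 favours translation of ATF4, were higher in part. Of 24 tested 14 were higher and 5 lower (58.3 and 20.8%, beside 16.8 and 17.7% of all genes). Their median was 0.52, beside -0.24 for phenylephrine alone and 0.50 for the knockdown in phenylephrine. Atf4 itself had 4965, 6432 and 5238 normalised reads in the untreated control, 6233, 6109 and 6733 in the stimulated control and 11426, 10192 and 8954 in the stimulated knockdown (0.88 ± 0.11, adjusted p = 5.0e-06). Slc3a2, the heavy chain of amino acid transporters, rose by 1.34 ± 0.10 (adjusted p = 3.1e-09). Nupr1, a stress-induced chromatin protein, rose from 170, 239 and 165 to 323, 304 and 278 (0.67 ± 0.17, adjusted p = 0.0038). Without the 2 distant libraries 14 were higher and 3 lower.

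The promoter windows of a few of these genes are shown because members of these 2 lists were often higher and short motifs are known for their regulators. The windows come from RefSeq on GRCm38.p6, run from 250 bases before to 50 after the gene start, and are printed 5′ to 3′ on the strand of the gene. Capitals mark a match, on either strand, to the interferon-stimulated response element (GAAA, any 2 bases, GAAA) in the first 4 and to TGATGNAA (the C/EBP-ATF response element) in the last 2. The genes were chosen after their matches were seen: Rsad2 and Ifit1 as interferon-stimulated genes, Gbp2 as a gene back at the untreated level, and Irgm2 and Trib3 as genes past it, with Nupr1 beside Trib3. The positions are chr12:26456403-26456702 (minus), chr19:34640639-34640938 (plus), chr3:142620413-142620712 (plus), chr11:58214727-58215026 (plus), chr2:152344011-152344310 (minus) and chr7:126625421-126625720 (minus), in the order printed.
Rsad2: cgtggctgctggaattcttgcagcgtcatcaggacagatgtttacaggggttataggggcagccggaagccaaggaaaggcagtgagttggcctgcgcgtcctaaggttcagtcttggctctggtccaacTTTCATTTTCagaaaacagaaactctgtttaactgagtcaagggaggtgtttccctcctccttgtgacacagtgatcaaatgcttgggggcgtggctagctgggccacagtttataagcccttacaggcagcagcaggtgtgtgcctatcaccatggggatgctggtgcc
Ifit1: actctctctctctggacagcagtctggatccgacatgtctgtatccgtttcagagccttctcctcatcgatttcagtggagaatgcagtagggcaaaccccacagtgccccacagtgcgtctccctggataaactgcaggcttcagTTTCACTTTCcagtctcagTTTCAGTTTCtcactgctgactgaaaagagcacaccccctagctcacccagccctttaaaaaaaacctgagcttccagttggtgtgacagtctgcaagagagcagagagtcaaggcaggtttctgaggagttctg
Gbp2: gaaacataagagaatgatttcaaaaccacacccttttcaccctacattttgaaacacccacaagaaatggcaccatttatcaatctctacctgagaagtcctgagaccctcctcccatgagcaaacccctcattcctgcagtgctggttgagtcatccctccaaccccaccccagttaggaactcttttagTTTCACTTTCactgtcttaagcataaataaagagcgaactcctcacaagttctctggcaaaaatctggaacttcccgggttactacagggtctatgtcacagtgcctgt
Irgm2: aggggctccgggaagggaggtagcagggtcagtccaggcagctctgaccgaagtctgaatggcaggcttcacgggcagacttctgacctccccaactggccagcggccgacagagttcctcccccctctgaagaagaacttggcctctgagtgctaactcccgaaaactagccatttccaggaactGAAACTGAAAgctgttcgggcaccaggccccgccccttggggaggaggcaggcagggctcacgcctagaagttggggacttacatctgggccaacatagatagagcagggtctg
Trib3: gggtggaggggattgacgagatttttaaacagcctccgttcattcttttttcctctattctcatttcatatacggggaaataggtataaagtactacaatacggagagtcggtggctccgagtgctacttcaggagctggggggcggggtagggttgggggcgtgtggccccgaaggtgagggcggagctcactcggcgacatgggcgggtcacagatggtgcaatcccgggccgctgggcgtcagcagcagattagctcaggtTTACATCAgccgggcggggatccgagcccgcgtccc
Nupr1: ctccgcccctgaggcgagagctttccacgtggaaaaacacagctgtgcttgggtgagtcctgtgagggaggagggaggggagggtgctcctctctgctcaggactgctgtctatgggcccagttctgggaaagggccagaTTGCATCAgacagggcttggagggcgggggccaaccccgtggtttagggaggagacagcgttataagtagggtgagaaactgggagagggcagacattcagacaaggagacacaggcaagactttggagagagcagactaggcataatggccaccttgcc

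The interferon-stimulated response element was found in 13 of 22 windows (59.1%) of the 19 interferon-stimulated genes with an entry, against 3.44% of all 32851 windows. Among windows of the genes back at the untreated level it was found in 3 of 84 (3.57%). Among genes that phenylephrine had lowered and that ended past the untreated level it was found in 3 of 8 windows (37.5%), and the C/EBP-ATF element in 2 of 8 (25%). These windows come from 7 of the 13 such genes, too few to speak for the class. Among the higher genes changed in the net state but not by phenylephrine alone, each of the elements was found in 6 of 141 windows (4.26%). The C/EBP-ATF element was found in 8 of 25 windows (32.0%) of the 22 ATF4 genes with an entry, against 3.97% of all windows. The AP-1 motif TGANTCA was found in 0 of 22 windows of the immediate early genes and in 5 of 22 (22.7%) of the interferon-stimulated genes, beside 7.81% of all windows. No match of one motif overlapped a match of another in the 69 windows of the 3 lists. For the lists, the windows of all members were counted whatever their net call. The lists hold known interferon-stimulated and ATF4 target genes, so their shares describe the lists and not this comparison. A match describes letters in the window and not a bound site.

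**Figure D4:**
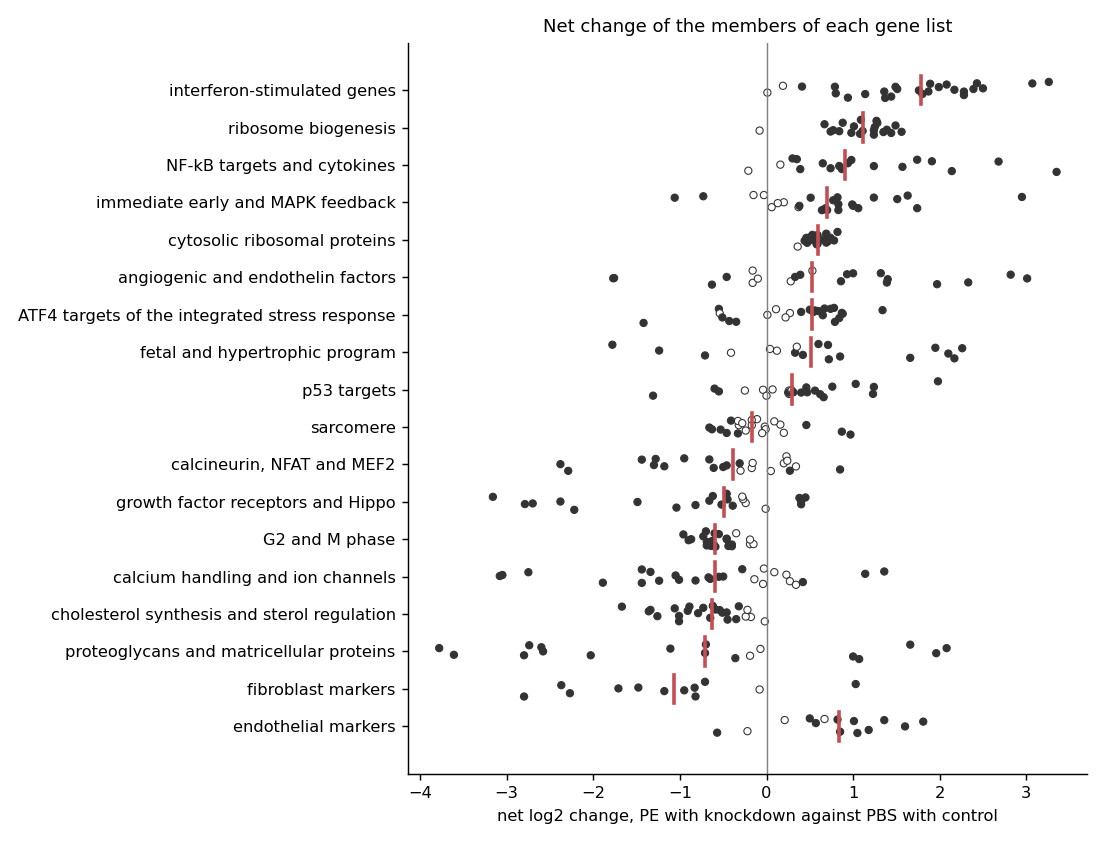
Net log2 change of each tested member of 18 gene lists. Filled points passed an adjusted p of 0.05, open points did not, and red bars are medians. The growth factor receptor and Hippo list holds genes picked earlier from these data. Of the lists shown, interferon-stimulated genes have the highest median at 1.78 and fibroblast markers the lowest at -1.06.

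Genes of G2 and M phase were lower, and those of S phase were not lower as a group. Of 22 genes of G2 and M phase none was higher and 18 were lower (81.8%), with a median of -0.60, beside -0.12 for phenylephrine alone and -0.43 for the knockdown in phenylephrine. Mki67, a marker of cycling cells, had 3339, 4311 and 4056 normalised reads in the untreated control and 2976, 2103 and 2051 in the stimulated knockdown (-0.73 ± 0.14, adjusted p = 5.4e-04). Top2a, the topoisomerase of chromosome separation, fell by 0.69 ± 0.12 (adjusted p = 1.0e-04). Of 18 S phase genes 3 were higher and 3 lower (16.7% each, beside 16.8 and 17.7% of all genes), with a median of -0.08. Erbb4, the neuregulin receptor of cardiomyocytes, had 1026, 931 and 1028, then 583, 625 and 592, then 174, 127 and 132 (-2.79 ± 0.13, adjusted p = 7.4e-12).

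Matrix genes and markers of other cell types moved in several directions. In bulk samples fewer cells of a type and less RNA per cell cannot be told apart. Of 18 proteoglycan and matricellular genes 5 were higher and 11 lower (27.8 and 61.1%), with a median of -0.71. Lum, lumican, had 1792, 1409 and 1615 normalised reads in the untreated control and 213, 232 and 239 in the stimulated knockdown (-2.80 ± 0.13, adjusted p = 7.8e-12). Ccn2, a matricellular growth factor, rose by 1.66 ± 0.09 (adjusted p = 9.7e-11). Of 26 collagen and matrix genes 5 were higher and 11 lower (19.2 and 42.3%, beside 16.8 and 17.7% of all genes). Col3a1 fell by 2.27 ± 0.10 (adjusted p = 5.2e-12).

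Of 12 fibroblast markers 1 was higher and 10 lower (8.33 and 83.3%, beside 16.8 and 17.7% of all genes). Their summed level was 74360 to 80325 in the untreated control and 35484 to 39490 in the stimulated knockdown. Of 14 endothelial markers 10 were higher and 1 lower (71.4 and 7.14%), with sums of 6674 to 7787 and 10321 to 12214. Pecam1, an endothelial adhesion molecule, rose from 262, 358 and 312 to 675, 625 and 620 (1.05 ± 0.12, adjusted p = 9.9e-07). Of 15 leukocyte markers 7 were higher and none lower (46.7% higher), with sums of 2968 to 3691 and 3921 to 4570. Ptprc, the pan-leukocyte antigen CD45, had 74, 51.1 and 74.6 and then 61, 57.8 and 62.5 (adjusted p = 0.75). Of 11 smooth muscle and pericyte markers 3 were higher and 7 lower (27.3 and 63.6%), although their sum was higher, at 30593 to 34376 and 41036 to 44584. Of 12 cardiomyocyte markers 1 was higher and 2 lower (8.33 and 16.7%, beside 16.8 and 17.7% of all genes), with sums of 795206 to 909294 and 1028144 to 1107845. Erythroid markers summed to 5 to 9 and to 9 to 15. The part of other cell types in the changes of the interferon, matrix and chemokine genes was not tested.

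Net changes also varied with the length of the gene body. Among genes with a mean of at least 50, the median net log2 change was 0.13 for 5240 genes spanning under 20 kb, 0.00 for 5157 genes of 20 to 100 kb, -0.28 for 1083 genes of 100 to 200 kb and -0.64 for 619 genes over 200 kb. The medians for the knockdown in phenylephrine were 0.06, -0.01, -0.23 and -0.55 in the same order, and those for phenylephrine alone were 0.04, 0.00, -0.05 and -0.06. The 353 lower genes of the class that phenylephrine alone had not moved, with a mean of at least 50, had a median span of 114 kb, beside 13 kb for the 130 higher ones and 24.8 kb for all 12099 such genes. Of the 619 genes over 200 kb, 431 were lower and 48 higher in the net comparison. Prkca, Cacna1c, Erbb4 and Hdac9 are examples of genes named above that span over 200 kb. The other named genes are not sorted by span here. The part of gene length in any single change or list count was not tested.

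**Figure D5:**
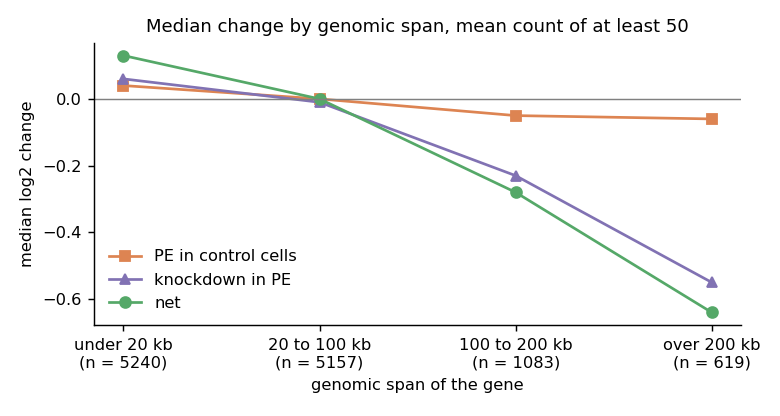
Median log2 change of genes with a mean count of at least 50, by the genomic span of the gene, for the net comparison, phenylephrine in control cells and the knockdown in phenylephrine. The net median goes from 0.13 under 20 kb to -0.64 over 200 kb, and the phenylephrine median from 0.04 to -0.06.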

How the data were processed

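RNA from cultured neonatal mouse cardiomyocytes was sequenced as paired reads in 12 libraries, 3 in each of 4 groups, per the labels' protocols. The submitters' processing notes name STAR, SAMtools, featureCounts and GRCm38.p6. The authors deposited 1 table of 55416 genes with a normalised signal per library. Within each library every value was a whole multiple of 1 step (100% of values within a tolerance of 0.001), so the deposited signal behaves as whole reads scaled by a single factor in each library, and the counts were recovered from it. Identifiers were matched to GENCODE M21 for 52083 genes, 35 of them with the same version. The other 3333, which carry 0.2% of the signal, have no symbol.

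The deposited values were analysed as log2(value + 1) with limma 3.58.1 (trended prior) in R 4.3.3. All 12 libraries and 4 group means were fitted to the 21799 genes with a mean of at least 1, two-sided, with Benjamini-Hochberg adjustment over all of them. Log2 changes are on that scale and understate the changes of low genes. Rose, fell, higher and lower are used for genes past an adjusted p of 0.05. edgeR 4.0.16 and DESeq2 1.42.0 were run on recovered counts as alternatives. The fits were tested on simulated data with changes of known size. There the net contrast found 81% of 2-fold and 44% of 1.5-fold changes. Of unchanged genes with a mean of at least 50, 86.7% were called within 1.5-fold.

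Genes named are the 8 central genes, the 10 highest and 10 lowest net changes, up to 4 called members of each list by size, and, in each class, the 5 largest phenylephrine changes in each direction among genes with a mean of at least 50 and no predicted-model symbol (for the class that phenylephrine alone had not moved, the 5 largest net changes in each direction). Other named genes are examples from the lists or are stated to have been chosen after their values were seen. The members and lists were chosen with earlier results of these data known.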

Additional observations from a re-analysis of the deposited data

How the results depend on the processing

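The counts of calls kept within 1.5 times of their main values under most alternatives. The 7501 net calls ranged from 6928 without a filter on low values to 7812 with only the 6 libraries compared, over the other pseudocount, filters, scalings and tools, and fell to 4849 when a 1.5-fold change was required as well. Leaving out 1 library at a time gave 6311 to 8401 net calls, 4263 to 6552 for phenylephrine in control cells, 1671 to 3502 for the knockdown in phenylephrine, 44 to 91 genes back at the untreated level and 371 to 540 genes changed in the net state but not by phenylephrine alone. Leaving out replicate 2 of the untreated knockdown together with the 2 distant libraries gave 8502 net calls and 4672 for the knockdown in phenylephrine. With the narrower of the other margins tried 0 genes were back and 0 changed in the net state but not by phenylephrine alone, and with a margin of 2-fold there were 27 and 240. A different margin changes both uses of it, the size of a change and the bounds of equivalence. Same-numbered libraries of the groups compared deviated from their group means with correlations of -0.435, -0.365 and 0.331. With 3 libraries per group such correlations cannot show whether same-numbered libraries shared a culture, and the labels do not say. With the replicate number as a block the net comparison gave 7243 calls, 66 genes back and 475 genes changed in the net state but not by phenylephrine alone. Of 179 named genes 18 changed their call under some alternative, of which 15 lost it and 3 gained it, and 0 reversed. In every fit that left out 1 library 18 of 75 genes kept their class as back, 6 of 23 as past, 50 of 139 as part way and 1757 of 2620 as still displaced.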

Other observations

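Counts of further lists are read against 16.8% of all genes higher and 17.7% lower, and several lie at or below those shares. Of 24 p53 targets 13 were higher and 3 lower, with a median of 0.30. Mdm2, the ubiquitin ligase of p53, had 2406, 2616 and 2695 normalised reads in the untreated control, 4272, 4336 and 4230 in the stimulated control and 6277, 6060 and 5802 in the stimulated knockdown (1.23 ± 0.09 SE, adjusted p = 5.6e-09). Sesn1, a stress-induced sestrin, fell by 1.31 ± 0.11 (adjusted p = 1.6e-08). Of 18 NRF2 targets 9 were higher and 7 lower. Hmox1, heme oxygenase 1, had 1679, 1897 and 1702, then 6292, 5914 and 5796, then 10217, 10173 and 9198 (2.49 ± 0.10, adjusted p = 1.6e-12), while Gsta3, a glutathione S-transferase, fell by 2.33 ± 0.31 (adjusted p = 6.3e-06).

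Of 21 angiogenic and endothelin factors 12 were higher and 4 lower, and Pdgfb, a platelet-derived growth factor chain, rose from 163, 117 and 132 to 705, 694 and 664 (2.33 ± 0.13, adjusted p = 1.1e-10). Of 20 glycolysis and lactate transport genes 6 were higher and 3 lower. Hk2, hexokinase 2, rose by 0.95 ± 0.09 (adjusted p = 9.4e-08) and Slc2a4, the insulin-sensitive glucose transporter GLUT4, fell by 1.22 ± 0.09 (adjusted p = 3.3e-09). Of 23 fatty acid genes 3 were higher and 6 lower (13 and 26.1%), with a median of 0.00, and Angptl4, an inhibitor of lipoprotein lipase, rose by 2.43 ± 0.10 (adjusted p = 1.6e-12). Of 28 nuclear respiratory chain genes 0 were higher and 3 lower (10.7%), and 0 of 13 mitochondrially encoded genes were called by limma (2 at an unadjusted p under 0.05), beside 1 lower with edgeR and with DESeq2. Of 18 genes for chaperones of the endoplasmic reticulum and its stress response 2 were higher and 5 lower. Epicardial markers gave 3 higher and 5 lower of 10, Schwann cell markers 0 and 2 of 6, erythroid markers 0 and 0 of 4 by limma (0 at an unadjusted p under 0.05, 0 by edgeR and 0 by DESeq2), and steroid dehydrogenases 3 and 1 of 7.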
